A study of Rattus norvegicus with 22 samples.

Results

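The methionine cycle and transsulfuration genes of the liver were followed by RNA sequencing across 22 rats in 4 groups. The members were taken by symbol from the table of normalised read counts, namely Mat1a, Gnmt, Pemt, Ahcy, Bhmt, Cbs, Cth and Shmt1. Of these 8 genes, 7 were found among the 14971 genes listed, and all 7 were among the 12424 genes that were tested, those whose normalised counts averaged at least 10. Cth was not analysed here. The groups were sham surgery with ozone (6 rats), sham surgery with air (5 rats), hepatic vagotomy with ozone (5 rats) and hepatic vagotomy with air (6 rats). Hepatic vagotomy severs the branch of the vagus nerve that runs to the liver, and sham surgery leaves it in place. The rats were operated on when 12 weeks old and recovered for 5 to 6 days. Ozone, an oxidant air pollutant, was given at 1 ppm for 4 hours on 1 or 2 days, with necropsy within 2 hours. Which rats had 1 or 2 days, the strain and the sex are not given in the sources used here. Each library was made from 10 to 20 mg of liver, so that fewer cells of a type and less RNA per cell cannot be told apart in any value below.

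Reads assigned to genes numbered 14098863 to 21141337 per library. All 7 hepatocyte markers examined, among them Alb, Serpina1 and Tf, were detected in all 22 libraries, with summed normalised counts of 2083212 to 2973917 in sham ozone, 2333469 to 2690955 in sham air, 2111203 to 2847293 in vagotomised ozone and 2211793 to 3025450 in vagotomised air. The 6 markers of lymphocytes and neutrophils found in the files summed to 114.2 to 153.4 in sham ozone against 165.4 to 224.0 in sham air, without overlap, and to 89.6 to 229.5 in vagotomised ozone against 147.6 to 185.5 in vagotomised air, with overlap. Among them Cd3e was at 0 in 5 libraries and S100a8 in 2. The 8 markers of Kupffer cells and macrophages summed to 5506 to 7962 in sham ozone against 6286 to 7968 in sham air, and to 5284 to 11163 in vagotomised ozone against 5531 to 9503 in vagotomised air. The part of these cells in the members' changes was not tested. In 4 libraries the normalised count of 5.8S ribosomal RNA was low, between 38.1 and 179.5, against 342.3 to 3775 in the other 18. These were replicate 3 of sham ozone, replicate 1 of vagotomised ozone and replicates 1 and 5 of vagotomised air, and none was from sham air. Values without them are given for some members and not for all, and the calls of the members with ozone were the same without them.

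In the methionine cycle, methionine is converted to S-adenosylmethionine (SAM), the methyl donor of most methyltransferases, and the S-adenosylhomocysteine left after methyl transfer is split into adenosine and homocysteine. Homocysteine is either methylated back to methionine, with betaine or a folate as donor, or drawn into transsulfuration, which passes its sulfur to cysteine. The liver carries a large share of this traffic, and hepatocytes use a SAM synthetase of their own, encoded by Mat1a.

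The promoter windows of 3 members that rose with ozone (Mat1a, Gnmt and Bhmt) and of 1 whose groups overlapped throughout (Shmt1) are shown, to set next to each other genes of the cycle that moved together and one that did not. Each runs 5′ to 3′ on the gene's own strand from 250 bases before to 50 bases after the annotated start in the RefSeq annotation of the rat build GRCr8, in which all 8 symbols were found. The windows lie at chr16:17016918-17017217 (Mat1a, + strand), chr9:21752032-21752331 (Gnmt, + strand), chr2:26614380-26614679 (Bhmt, - strand) and chr10:45990292-45990591 (Shmt1, - strand). Capitals mark matches, on either strand, to any of 7 motifs that were searched.
Mat1a: 
Gnmt: 
Bhmt: 
Shmt1: 

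The motifs were the cAMP response element TGACGTCA, its half-site TGACG, the glucocorticoid response element core ACANNNTGT, the C/EBP-ATF element TGATGNAA, the antioxidant response element TGACNNNGC, the FOXO site GTAAACA and the E-box CACGTG. The window of Mat1a held the half-site TGACG on the reverse strand at positions -220 to -216 from the start, and that of Pemt held it at -218 to -214, on the reverse strand too. The Gnmt window held TGACG on the reverse strand at -3 to 2, inside a match to TGACNNNGC at -7 to 2, and ACANNNTGT at 12 to 20. The Shmt1 window held CACGTG at -89 to -84 and at -61 to -56, and that of Cth held it at -178 to -173. None of the 7 motifs was found in the windows of Bhmt, Ahcy and Cbs. Among 33469 rat promoter windows of the same length, 21.2% held TGACG, 12.1% TGACNNNGC, 6.86% ACANNNTGT, 6.42% CACGTG, 3.98% TGATGNAA, 3.78% GTAAACA and 1.83% TGACGTCA. The half-site thus stood in windows of genes that rose (Mat1a, Gnmt) and of one that did not pass the test (Pemt), and 3 of the genes that rose held no match in these windows.

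After ozone, 5 of the 7 members rose in sham rats and the same 5 rose in vagotomised rats, namely Mat1a, Gnmt, Ahcy, Bhmt and Cbs, and none fell. Among all genes tested 28.4% changed with ozone in sham rats, 14.6% up, and 21.1% in vagotomised rats, 11.4% up. Without the 4 libraries low in 5.8S the same 5 members rose in each surgery group, against 19.1% and 12.3% of all genes. Gnmt and Bhmt were up by about 3-fold, Mat1a by about 2-fold and Ahcy and Cbs by less, whereas the intervals of Shmt1 and Pemt lay on both sides of 0. The median log2 change of the 7 members was 0.87 in sham rats and 0.66 in vagotomised rats, beside 0.01 and -0.01 over all genes tested. A change here is a difference between group means of log2(normalised count + 1), given with its standard error (SE) or 95% interval from limma, a linear model with a shared estimate of the spread. "Rose" and "fell" are used for an adjusted p under 0.05 (Benjamini-Hochberg over the 12424 genes), and the values below are normalised counts, which are comparable between libraries but not between genes.

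**Figure D1:**
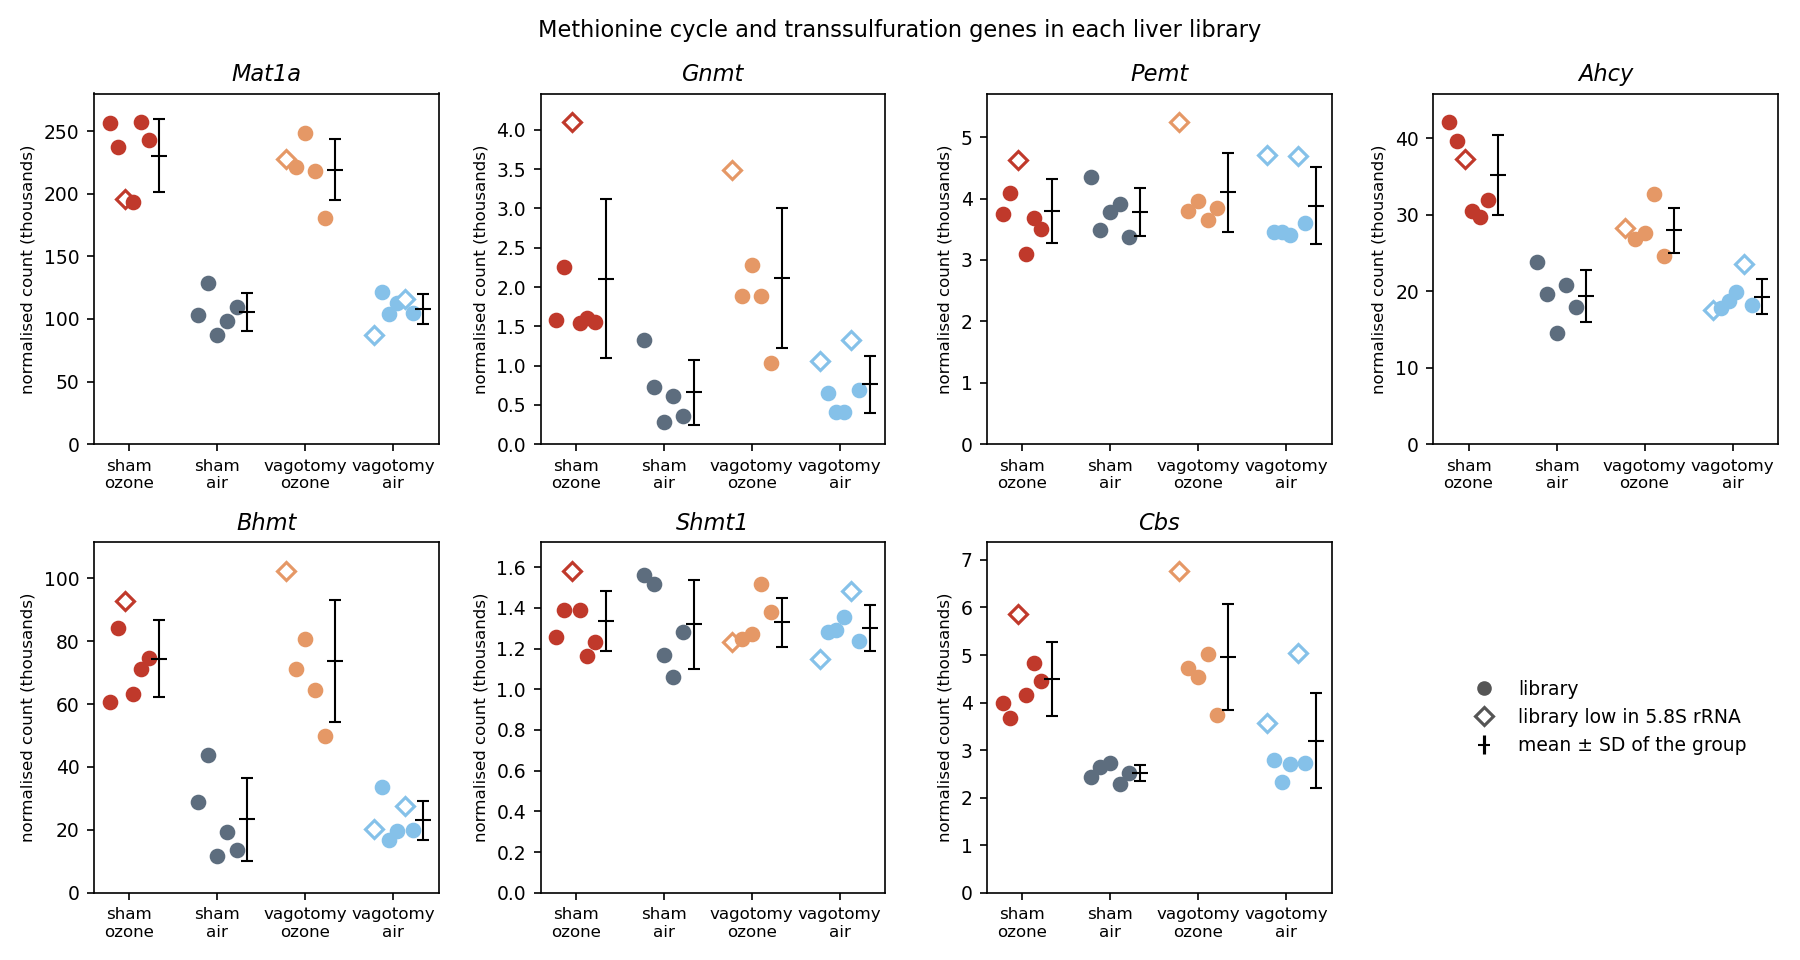
Normalised counts (in units of 1000, linear axis from 0) of the 7 members in each library, with the group mean and SD beside the points, ozone left of air in each surgery group and the 4 libraries low in 5.8S ribosomal RNA marked. Ozone libraries lie above air libraries for Mat1a, Bhmt and Ahcy in both surgery groups, while the 4 groups of Shmt1 and of Pemt lie at the same height.

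Mat1a encodes the SAM synthetase of hepatocytes, which opens the cycle. Its normalised counts in sham ozone ran from 193668 to 256890 with a median of 240190, against 103061, 129007, 87585, 98363 and 109258 in sham air. No sham ozone library reached down to the air range. Vagotomised ozone rats had 227703, 221102, 248487, 218355 and 181014, and vagotomised air rats 87402 to 121713 with a median of 108830, again with no overlap. The log2 change was 1.13 ± 0.12 (SE, adjusted p = 5.84e-07 by limma) in sham rats and 1.03 ± 0.12 (adjusted p = 3.21e-06) in vagotomised rats, or 2.19-fold and 2.04-fold. Mat1a alone took a median of 1.30% of all reads in genes in sham ozone (range 1.15 to 1.44%), 0.617% in sham air (0.557 to 0.776%), 1.33% in vagotomised ozone (1.17 to 1.46%) and 0.663% in vagotomised air (0.549 to 0.754%).

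Gnmt encodes glycine N-methyltransferase, an abundant liver enzyme that spends SAM on glycine to make sarcosine and so disposes of excess methyl groups. It ranged from 1547 to 4095 in sham ozone, with a median of 1593, whereas sham air rats had 1326, 729, 286, 610 and 358. The groups did not overlap, although air replicate 1 came close to the lower ozone libraries. In vagotomised ozone it stood at 3495, 1891, 2284, 1882 and 1035, and in vagotomised air at 413 to 1332 with a median of 674. There the groups overlapped, since ozone replicate 5 lay below air replicates 1 and 5, both of them low in 5.8S. Gnmt rose by a log2 change of 1.78 ± 0.37 in sham rats (limma, adjusted p = 0.00103, 3.43-fold) and of 1.51 ± 0.37 in vagotomised rats (adjusted p = 0.00561, 2.84-fold). Without the 4 libraries low in 5.8S the changes were 1.56 ± 0.30 and 1.69 ± 0.34, and neither pair of groups overlapped.

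Pemt encodes phosphatidylethanolamine N-methyltransferase, which uses SAM to make phosphatidylcholine and is, with Gnmt, one of the larger users of SAM in liver. Its normalised counts were 3091 to 4621 with a median of 3718 in sham ozone, against 4351, 3481, 3786, 3908 and 3378 in sham air. Vagotomised ozone rats had 5238, 3802, 3960, 3653 and 3849, and vagotomised air rats 3414 to 4705 with a median of 3529. The groups overlapped in both surgery groups. The log2 change lay between -0.25 and 0.24 in sham rats and between -0.17 and 0.33 in vagotomised rats (95% intervals, limma). Without the low-5.8S libraries the 4 remaining vagotomised ozone libraries, at 3653 to 3960, lay just above the 4 vagotomised air libraries, at 3414 to 3595, with a log2 change of 0.13 ± 0.09 that did not pass (adjusted p = 0.314).

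Ahcy encodes S-adenosylhomocysteine hydrolase, which removes the product that inhibits methyltransferases and releases homocysteine. It stood at 29762 to 42095 in sham ozone with a median of 34633, against 23818, 19681, 14616, 20797 and 17919 in sham air. In vagotomised ozone it stood at 28304, 26844, 27622, 32676 and 24571, and in vagotomised air at 17617 to 23603 with a median of 18436. Ozone and air did not overlap in either surgery group. The log2 change was 0.87 ± 0.12 in sham rats (limma, adjusted p = 1.44e-05, 1.83-fold) and 0.54 ± 0.12 in vagotomised rats (adjusted p = 0.00285, 1.45-fold).

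Bhmt encodes betaine-homocysteine methyltransferase, which in liver and kidney returns homocysteine to methionine with a methyl group of betaine. Sham ozone rats had 60640 to 92707 with a median of 72870, against 28782, 43807, 11709, 19201 and 13613 in sham air. Vagotomised ozone rats had 102303, 71099, 80605, 64440 and 49989, and vagotomised air rats 16745 to 33494 with a median of 20177. Ozone and air were apart in both surgery groups, and the coefficient of variation was 16.5% in sham ozone and 56.3% in sham air. The log2 change was 1.83 ± 0.26 in sham rats (limma, adjusted p = 1.61e-05, 3.54-fold) and 1.68 ± 0.26 in vagotomised rats (adjusted p = 6.87e-05, 3.21-fold).

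Cbs encodes cystathionine beta-synthase, which joins homocysteine to serine and commits it to transsulfuration. Normalised counts were 3685 to 5854 with a median of 4310 in sham ozone, against 2428, 2643, 2722, 2289 and 2525 in sham air, without overlap. Vagotomised ozone rats had 6768, 4730, 4545, 5014 and 3741, and vagotomised air rats 2335 to 5048 with a median of 2757. These groups overlapped: 1 of 5 ozone libraries lay above all air libraries, since air replicate 5, low in 5.8S, stood at 5048. The log2 change was 0.82 ± 0.16 in sham rats (limma, adjusted p = 0.000623, 1.77-fold) and 0.66 ± 0.16 in vagotomised rats (adjusted p = 0.00586, 1.58-fold). With the low-5.8S libraries left out it was 0.74 ± 0.09 in sham rats and 0.77 ± 0.10 in vagotomised rats (adjusted p = 3.57e-06 and 2.25e-05), and the vagotomised groups no longer overlapped, at 3741 to 5014 with ozone and 2335 to 2794 with air.

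Shmt1 encodes cytosolic serine hydroxymethyltransferase, which moves a carbon from serine to tetrahydrofolate and joins the cycle to folate. It stood at 1166 to 1582 with a median of 1323 in sham ozone, against 1564, 1520, 1171, 1061 and 1284 in sham air. Vagotomised ozone rats had 1234, 1246, 1270, 1515 and 1378, and vagotomised air rats 1150 to 1484 with a median of 1286. All 4 groups overlapped. The log2 change lay between -0.19 and 0.24 in sham rats and between -0.18 and 0.25 in vagotomised rats (95% intervals), so a change of the size seen for Cbs or Mat1a lay outside them. The point estimate, 0.03 in both surgery groups, changed sign in sham rats when columns were rescaled to equal totals (-0.08), to equal upper quartiles (-0.04) or without the low-5.8S libraries (-0.02), and in vagotomised rats under equal upper quartiles (-0.02).

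Counted by overlap, 5 of 7 members had every sham ozone library above every sham air library, as did 8.15% of all genes tested, and 3 of 7 had every vagotomised ozone library above every vagotomised air library, as did 6.54% of all. Without the libraries low in 5.8S these were 5 and 6 of 7, against 11.8% and 14.9% of all genes. A rise of at least 2-fold was called for Mat1a, Gnmt and Bhmt in each surgery group, against 2.75% of genes in sham rats and 1.62% in vagotomised rats. Mat1a in vagotomised rats was near that limit. Its rise there was 1.95-fold without the libraries low in 5.8S, and its log2 change went down to 0.97 with 1 library left out. Whatever the size of the rise, the 5 risen members were called in all 11 alternative settings, edgeR and DESeq2 on recovered reads among them, and in all 22 fits that left out 1 library.

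**Figure D2:**
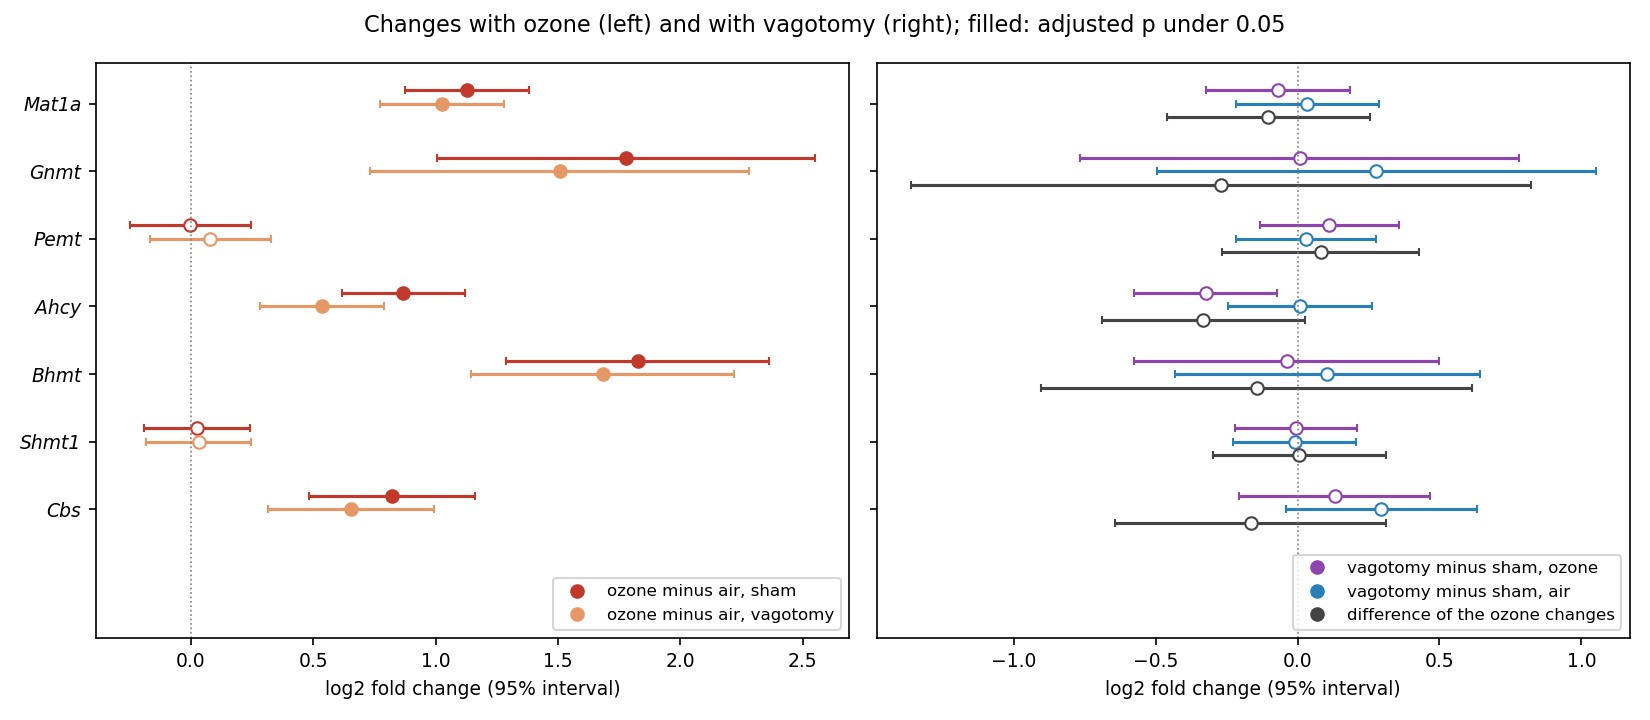
Log2 change of each member with its 95% interval, for ozone against air in sham and in vagotomised rats (left) and for vagotomy against sham under ozone, under air and for the difference of the ozone changes (right). The 5 risen members lie right of 0 with ozone in both surgery groups, whereas only the ozone interval of Ahcy, -0.58 to -0.07, leaves out 0 among the surgery comparisons.

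Vagotomy was set against sham surgery at each exposure to ask whether the hepatic vagus bears on these genes, and 0 of 7 members were called at either exposure by limma, edgeR or DESeq2. Over all genes the call rate was 0% in air and 1.34% under ozone. At an unadjusted p under 0.05 there were 0 of 7 members in air and 1 under ozone, and over all genes in air 387 passed that level while edgeR and DESeq2 called 0. The member below that level was Ahcy, whose log2 difference under ozone was -0.32 ± 0.12 (unadjusted p = 0.0143 and adjusted p = 0.202 by limma), with a mean of 28003 ± 2966 in vagotomised ozone (SD, n = 5) and of 35219 ± 5185 in sham ozone (SD, n = 6). The ranges overlapped, 24571 to 32676 in vagotomised ozone and 29762 to 42095 in sham ozone.

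In air, Cbs had the widest departure of the 7 members, 0.30 ± 0.16 (95% interval -0.04 to 0.63), and without the low-5.8S libraries it was 0.07 ± 0.09. Gnmt stood at 0.28 with all libraries and at -0.11 without those libraries. The mean of Cbs was 3198 ± 994 in vagotomised air (SD, n = 6) and 2521 ± 172 in sham air (SD, n = 5), and without the low-5.8S libraries the vagotomised air mean was 2640 ± 207 (SD, n = 4).

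Whether the ozone changes themselves differed between vagotomised and sham rats was tested by the interaction term, and 0 of 7 members passed by limma, edgeR or DESeq2, with 0 of 7 at an unadjusted p under 0.05. Over all genes limma called 0%, with 1147 genes (9.23%) at an unadjusted p under 0.05, edgeR called 0 and DESeq2 16. For Ahcy the ozone change was -0.33 ± 0.17 on the log2 scale in vagotomised minus sham rats (adjusted p = 0.578 by limma, 95% interval -0.69 to 0.03). The interval was widest for Gnmt, -1.36 to 0.82, and so took in both a smaller and a larger ozone response in vagotomised rats. The other intervals were narrower, with standard errors of 0.37 for Bhmt, 0.23 for Cbs and 0.15 to 0.17 for Mat1a, Pemt and Shmt1.

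The members differed in how much rats of 1 group varied. The residual SD on the log2 scale was 0.69 for Gnmt, larger than that of 96.2% of the genes tested, and 0.47 for Bhmt, larger than that of 84.6%. It was 0.29 for Cbs, 0.20 for Ahcy and for Pemt, 0.18 for Mat1a and 0.17 for Shmt1, beside a median of 0.28 over all genes. Gnmt and Bhmt varied alongside each other in sham air, where replicates 1 and 2 held the highest values of both and replicate 3 the lowest.

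Part of this spread went with the 5.8S measure. Gnmt, Cbs and Pemt in each of the 4 low-5.8S libraries stood above all libraries of their own group that were not low in it, by a log2 distance over the median of those of 0.89 to 1.37 for Gnmt, 0.40 to 0.89 for Cbs and 0.33 to 0.45 for Pemt. Mat1a did not share this, with 3 of the 4 libraries inside the range of the others and 1 below it. Bhmt was above in 2 and within in 2, Ahcy above in 1, below in 1 and within in 2, and Shmt1 above in 2 and below in 2. The share of all genes tested that stood above in all 4 libraries was not counted. Such a place is thus not shown to be particular to Gnmt, Cbs and Pemt. Without the 4 libraries the residual SD was 0.57 for Gnmt, 0.14 for Cbs and 0.11 for Pemt, against 0.49 for Bhmt and 0.17 for Mat1a. The median over all genes tested was lower too, at 0.23 without the 4 libraries against 0.28 with them. The part of RNA quality in these differences was not tested.

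**Figure D3:**
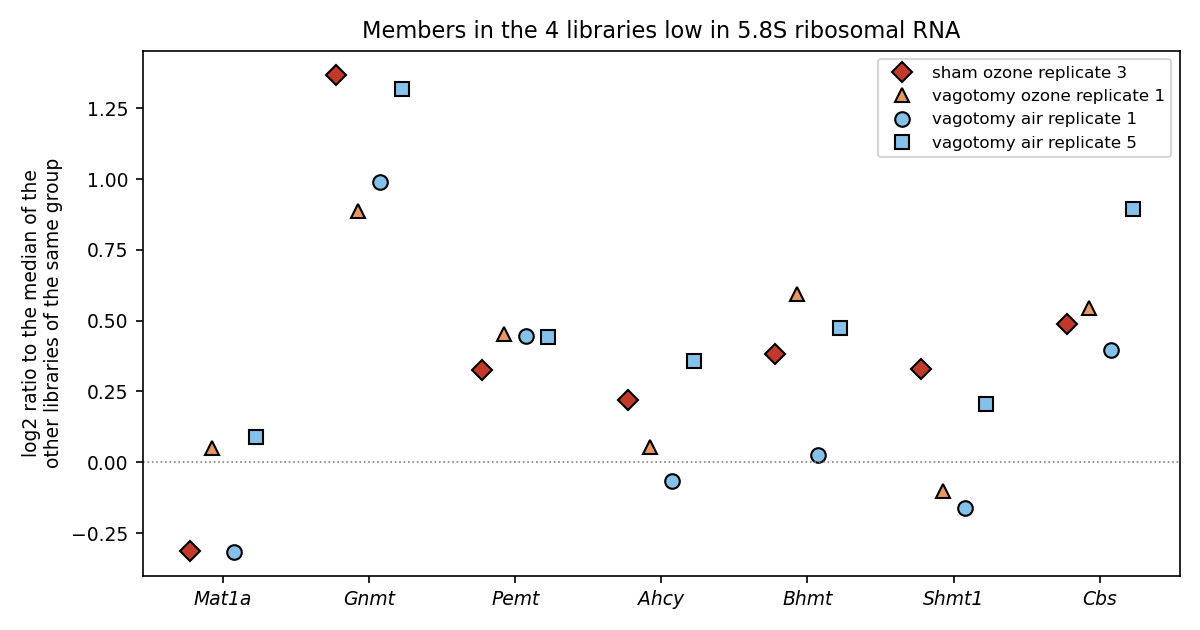
Log2 ratio of each member in the 4 libraries low in 5.8S ribosomal RNA over the median of the libraries of the same group that were not low, 1 point per library. All 4 points lie above 0 for Gnmt (0.89 to 1.37), Cbs (0.40 to 0.89) and Pemt (0.33 to 0.45), while those of Mat1a run from -0.32 to 0.09.

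The pattern of each member over the 22 libraries was compared with that of every gene tested, by the root mean square difference of log2 values centred on their mean, where 0 is an identical pattern. Mat1a was nearest to Dbt (0.14) and Limk2 (0.17), Ahcy to Selenos (0.13) and Psmd12 (0.16), and Cbs to Psmd9 (0.20) and Fbxw8 (0.21). The distances to the nearest genes were larger for Gnmt (Ethe1, 0.35) and for Bhmt (Mtmr7, 0.40, and Ethe1, 0.41). Their median distances to the genes tested were larger too, 1.08 for Gnmt and 1.02 for Bhmt. That median was 0.65 for Mat1a, 0.52 for Ahcy, 0.56 for Cbs, 0.36 for Shmt1 and 0.38 for Pemt. Shmt1 lay nearest to Wdr61 (0.12) and Pemt to Psmg1 (0.08). Among the members themselves the smallest distances were those of Shmt1 with Pemt (0.23), Mat1a with Ahcy (0.28), Ahcy with Cbs (0.35) and Mat1a with Cbs (0.37). Gnmt and Bhmt lay farther apart (0.44), but each was nearer to the other than to any other member, since the other distances were 0.68 to 1.00 for Gnmt and 0.50 to 0.95 for Bhmt. These distances are not scaled to how far each gene varies, so genes that vary little lie close whatever their patterns. The root mean square of the centred values was 0.15 for Shmt1 and 0.18 for Pemt, against 1.03 for Gnmt and 0.97 for Bhmt. The ranking of distances is thus no ranking of shared patterns. The distances describe libraries that share the 4 groups, and they carry no test.

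Around the members, 73 further genes of the pathway in 7 lists were tested. With ozone 21 rose and 8 fell in sham rats, and 16 rose and 7 fell in vagotomised rats, so that 44 and 50 did not pass. The median log2 change of the 73 was 0.12 in sham rats and 0.09 in vagotomised rats. Over all genes 13.8% fell in sham rats and 9.63% in vagotomised rats, and of the 73 genes 11.0% and 9.59% fell, near those shares. Over all genes 14.6% rose in sham rats and 11.4% in vagotomised rats, beside 28.8% and 21.9% of the 73. Without the low-5.8S libraries 24 rose and 10 fell in sham rats and 20 rose and 7 fell in vagotomised rats, when 19.1% and 12.3% of all genes rose. The split of all calls depends on the scaling: in sham rats 51.3% of the called genes rose, against 33.9% after rescaling to equal column totals and 39.3% after rescaling to equal upper quartiles.

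**Figure D4:**
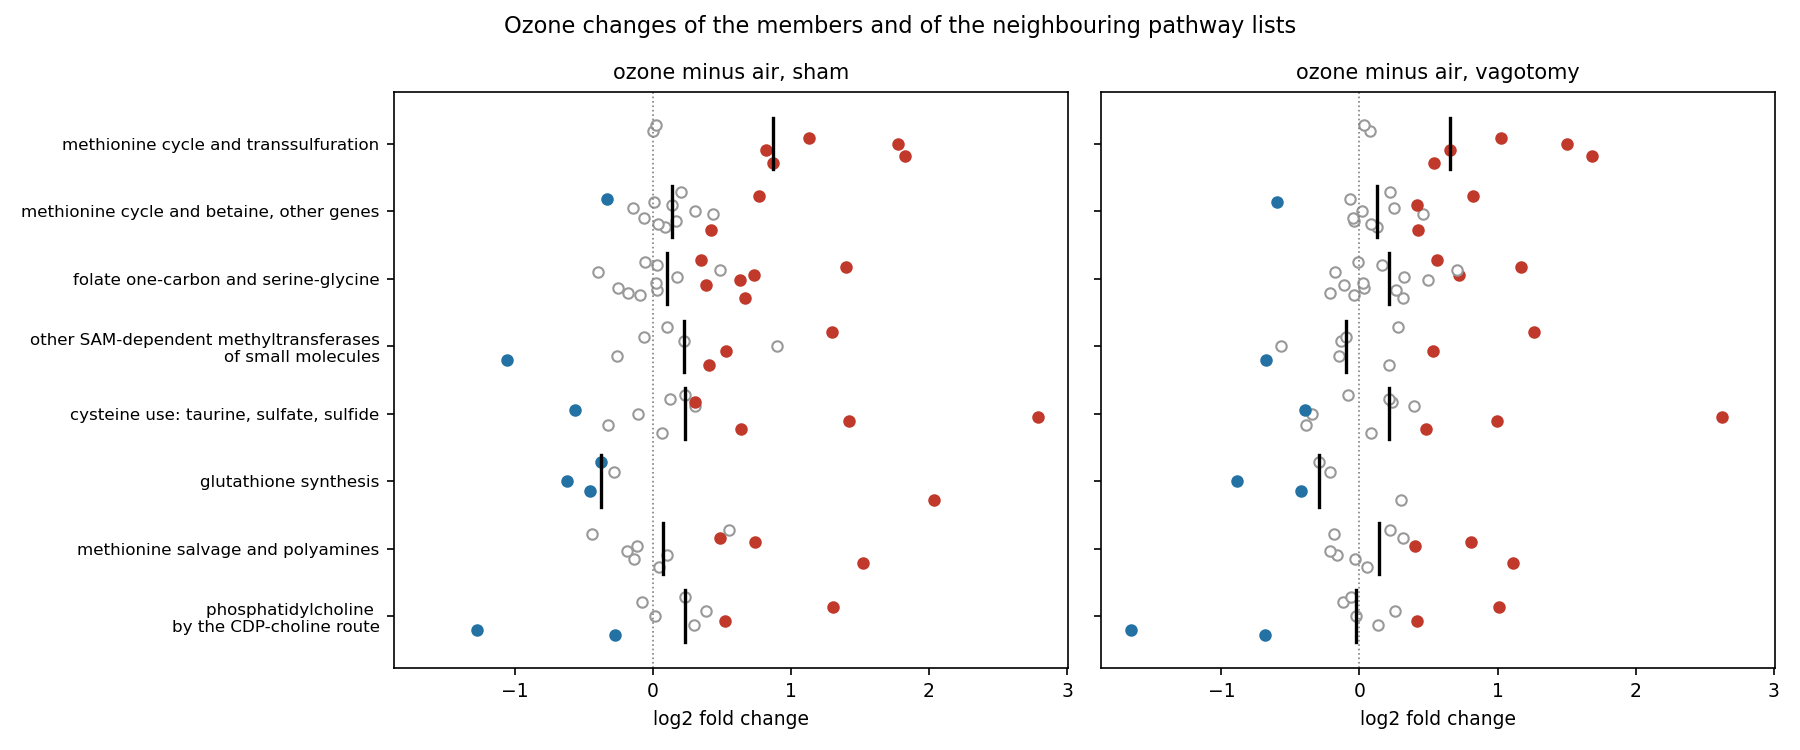
Log2 change with ozone of every gene tested in the 7 pathway lists and of the 7 members, in sham rats (left) and vagotomised rats (right), with genes that rose in red, genes that fell in blue, genes that did not pass as open circles and the median of each list as a bar. The members lie to the right, with medians of 0.87 and 0.66, while the medians of the 7 other lists lie between -0.37 and 0.23.

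Of 13 other genes of the methionine cycle and betaine, 2 rose and 1 fell in sham rats and 3 rose and 1 fell in vagotomised rats. Sardh, the sarcosine dehydrogenase that takes up the product of Gnmt, rose by 0.77 ± 0.16 and by 0.83 ± 0.16 (SE, sham and vagotomised rats, limma, adjusted p = 0.000843 and 0.000668). Adk, the adenosine kinase that removes the adenosine released by Ahcy, rose by 0.42 ± 0.08 and by 0.43 ± 0.08 (adjusted p = 0.000619 and 0.000844). Mtr, the folate-dependent methionine synthase and thus the alternative to Bhmt, fell by 0.59 in vagotomised rats (adjusted p = 0.0117) and stood at 0.01 in sham rats. Its reductase Mtrr fell by 0.33 in sham rats (adjusted p = 0.0341), a call that was lost without sham air replicate 1, 2 or 5 or sham ozone replicate 1 or 2 (adjusted p = 0.0554 to 0.11). Mat2a, the SAM synthetase of other tissues, stood at -0.14 and 0.25 and did not pass in either surgery group (95% intervals -0.46 to 0.18 and -0.06 to 0.57). Mat2b, of the same list, rose by 0.41 in vagotomised rats (limma, adjusted p = 0.02955), with overlapping groups. In sham rats Mat2b stood at 0.14 and did not pass (adjusted p = 0.464).

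Of 16 genes of folate metabolism and of serine and glycine, 6 rose in sham rats and 3 in vagotomised rats, and none fell. Psat1, an aminotransferase of serine synthesis, rose by 1.40 ± 0.20 and 1.17 ± 0.20 in sham and vagotomised rats (limma, adjusted p = 1.43e-05 and 0.000168). Mthfd1, which interconverts folates that carry single carbons, rose by 0.73 ± 0.13 and 0.72 ± 0.13 (adjusted p = 0.00018 and 0.000318). Aldh1l1, which burns off folate-bound carbon, rose by 0.67 ± 0.14 in sham rats (adjusted p = 0.00131) and stood at 0.31 ± 0.14 in vagotomised rats, where it did not pass (adjusted p = 0.135). The reduced folate carrier Slc19a1 rose by 0.56 in vagotomised rats (adjusted p = 0.00233). In sham rats it stood at 0.35 (adjusted p = 0.0388) and at 0.31 without the low-5.8S libraries, where it did not pass (adjusted p = 0.067).

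Of 9 other methyltransferases that use SAM, 3 rose and 1 fell in sham rats and 2 rose and 1 fell in vagotomised rats. Nnmt, which methylates nicotinamide, had 782 to 1258 normalised counts in sham ozone, 359 to 489 in sham air, 831 to 1409 in vagotomised ozone and 324 to 593 in vagotomised air, without overlap in either pair. It rose by 1.30 ± 0.16 and 1.27 ± 0.16 (limma, adjusted p = 2.54e-06 and 6.56e-06). Icmt, which methylates prenylated proteins and so is no enzyme of a small molecule, rose by 0.53 ± 0.10 and 0.54 ± 0.10.

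Of 11 genes of cysteine use, 4 rose and 1 fell in sham rats and 3 rose and 1 fell in vagotomised rats. Got1, a transaminase of aspartate that also acts on cysteine sulfinate, had 19548 to 35150 normalised counts in sham ozone, 2933 to 5974 in sham air, 18086 to 28430 in vagotomised ozone and 2685 to 6039 in vagotomised air. It rose by 2.79 ± 0.21 and 2.63 ± 0.21 (limma, adjusted p = 6.08e-09 and 2.22e-08), more than any member did. Ethe1, a mitochondrial persulfide dioxygenase, rose by 1.42 ± 0.27 and 1.00 ± 0.27 (adjusted p = 0.000359 and 0.00965). Cdo1, the cysteine dioxygenase that leads to taurine and sulfate, rose by 0.64 ± 0.12 and 0.48 ± 0.12 (adjusted p = 0.000386 and 0.00628).

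Of 5 genes of the glutathione list, 1 rose and 3 fell in sham rats and 2 fell in vagotomised rats. Both subunits of glutamate-cysteine ligase, which opens glutathione synthesis, fell. The modifier subunit Gclm fell by 0.62 and 0.88 (SE 0.13, limma, adjusted p = 0.00121 and 5.01e-05), and the catalytic subunit Gclc fell by 0.46 and 0.43 (SE 0.12, adjusted p = 0.00578 and 0.0128). The gene that rose in sham rats was Chac1, which breaks glutathione down and does not make it, at 10.6 to 47.6 normalised counts in sham ozone and 0.991 to 8.03 in sham air (log2 change 2.04 ± 0.58, adjusted p = 0.0109). In vagotomised rats Chac1 stood at 0.30 ± 0.58, and its highest value in each vagotomised group was in a library low in 5.8S. Without those libraries its mean was 6.93 in vagotomised ozone and 3.93 in vagotomised air, against 12.0 and 12.1 with them, and its change was 0.68 ± 0.48, which did not pass (limma, adjusted p = 0.343).

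Of 10 genes of methionine salvage and polyamines, 3 rose in each surgery group and none fell. Amd1, which decarboxylates SAM for polyamine synthesis, rose by 1.52 ± 0.24 and 1.11 ± 0.24 (limma, adjusted p = 6.07e-05 and 0.00206), and Odc1, the ornithine decarboxylase, by 0.74 ± 0.10 and 0.81 ± 0.10 (adjusted p = 1.51e-05 and 8.51e-06). Sat1, which acetylates spermidine and spermine for their breakdown, rose by 0.48 ± 0.14 in sham rats (adjusted p = 0.0149). In vagotomised rats Sat1 stood at 0.32 (adjusted p = 0.130), and it passed without the low-5.8S libraries, at 0.44 (adjusted p = 0.0206). Mtap, a gene of methionine salvage, rose by 0.40 in vagotomised rats (limma, adjusted p = 0.0451). That call was lost with no minimum mean, under equal column totals and under equal upper quartiles (adjusted p up to 0.0816). It was also lost in several fits without 1 library (adjusted p up to 0.112).

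Of 9 genes of the CDP-choline route, the source of phosphatidylcholine beside Pemt, 2 rose and 2 fell in each surgery group. Pcyt1a, the rate-limiting enzyme of the route, had 1642 to 1949 normalised counts in sham ozone, 512 to 940 in sham air, 1524 to 1834 in vagotomised ozone and 654 to 965 in vagotomised air. It rose by 1.31 ± 0.13 and 1.01 ± 0.13 (limma, adjusted p = 1.48e-07 and 6.51e-06). The choline kinase Chka, which acts before it, fell by 1.27 and 1.65 (SE 0.23, adjusted p = 0.000191 and 1.69e-05). Chpt1, a cholinephosphotransferase, rose by 0.52 ± 0.15 in sham rats and by 0.41 in vagotomised rats (limma, adjusted p = 0.0094 and 0.0458). Cept1, which makes both choline and ethanolamine phospholipids, fell by 0.27 in sham rats and by 0.68 in vagotomised rats (limma, adjusted p = 0.0255 and 1.14e-05).

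Between vagotomised and sham rats, 0 of the 73 genes were called in air by limma, edgeR or DESeq2, with 1 at an unadjusted p under 0.05. Under ozone limma called 2. Mtap, which salvages the sulfur-containing product of polyamine synthesis, was higher by 0.64 ± 0.14 (adjusted p = 0.0294), and Cept1 was lower, at -0.42 ± 0.09 (adjusted p = 0.0287). The call of Mtap was lost without sham ozone replicate 1 or 2 or vagotomised ozone replicate 2, 4 or 5 (adjusted p = 0.0617 to 0.0901), and that of Cept1 without sham ozone replicate 1 or 2 or vagotomised ozone replicate 2, 3, 4 or 5 (adjusted p = 0.0507 to 0.0791). Both calls were also lost with only the groups compared in the fit (adjusted p = 0.143 for Mtap and 0.115 for Cept1), and that of Cept1 under equal column totals (adjusted p = 0.0825). The ozone changes of 0 of the 73 genes differed between vagotomised and sham rats by limma, edgeR or DESeq2, with 6 at an unadjusted p under 0.05.

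Periportal hepatocytes lie upstream and pericentral ones downstream in the blood flow of the liver lobule, and marker sets of both include enzymes of nitrogen metabolism. The summed normalised count of 7 periportal markers, among them Cps1 and Arg1, was 188717 to 297108 in sham ozone against 125966 to 208262 in sham air. In vagotomised rats it was 209388 to 274820 with ozone against 127136 to 199001 with air. Cps1 supplies most of the periportal sum, with a mean of 135333 against 204294 for the sum over all 22 libraries. The summed normalised count of 7 pericentral markers, of which Cyp2e1 supplies most, was 84896 to 173874 in sham ozone against 41426 to 112768 in sham air. In vagotomised rats it was 79266 to 104466 with ozone against 58656 to 87836 with air. All pairs of ranges of the pericentral sum overlapped, as did the sham ranges of the periportal sum, while the vagotomised ranges of the periportal sum did not. The sham ozone library with the lowest periportal sum was replicate 3, which was low in 5.8S, and without it that sum was 235361 to 297108 in sham ozone, above every sham air library. Without the low-5.8S libraries the periportal ranges thus did not overlap in either surgery group, and the pericentral ranges still overlapped in both. The part of these markers in the changes of the members was not tested.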

How the data were processed

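The values are a normalised signal deposited by the authors, each a gene's read count scaled by a size factor of its library. DESeq, DESeq2, Partek and STAR, with genome build rn6, are named in the submitters' processing notes, with no versions. All 22 columns were used, and all their values were whole multiples of 1 step within 0.001, which gave back the reads. Genes with a mean of at least 10 were analysed as log2(value + 1) with limma 3.58.1 in R 4.3.3, with 4 group means in 1 fit over 22 libraries, trended empirical Bayes moderation, two-sided tests and Benjamini-Hochberg adjustment over 12424 genes. The steps were tested on simulated data. Exposure days could not be modelled, and the labels name no batch. Libraries of 1 group were checked for copies, and all 50 pairs differed beyond sampling noise (chi-square per degree of freedom of 9.30 or more). Replicate numbers were taken to count rats within a group.

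The members and the lists were chosen with earlier results of these data known. Named are all members, up to 3 called genes with the smallest p of each of 7 pathway lists in each comparison, and the nearest genes by pattern. Single values discussed beside them, such as those of Mat2a and Mat2b, were chosen after they were seen. A few genes that the rule named are not reported here. The alternatives were pseudocounts of 0.5 and 5, a minimum mean of 50 or none, equal column totals or upper quartiles, only the groups compared, the replicate number as a block, no low-5.8S libraries (under 200), edgeR 4.0.16 (quasi-likelihood, TMM) and DESeq2 1.42.0 on recovered reads, and each library left out in turn. Counts from genes that share reads with near copies, such as Bhmt with Bhmt2, were used as deposited. Promoter windows are from RefSeq (GRCr8), not the build of the counts. The plots used matplotlib 3.10.9 in Python 3.11.15.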

Additional observations from a re-analysis of the deposited data

Results flagged for a closer look

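In 124 combinations of gene and group, over the 7 members and 24 named pathway genes, 8 held 1 library far from the rest of its group by Dixon's test at the 95% level, which chance alone gives in about 1 in 20 groups. Of these, 4 were in libraries low in 5.8S ribosomal RNA, and the part of RNA quality in them was not tested. Among the members, Gnmt stood at 4095 normalised counts in sham ozone replicate 3, against 1547 to 2250 in the other sham ozone rats, and Pemt at 5238 in vagotomised ozone replicate 1, against 3653 to 3960 in the others. Both libraries were low in 5.8S. In the same vagotomised ozone library Chac1 stood at 32.4 (others 4.95 to 10.5), and it stood at 42.5 in vagotomised air replicate 1 (others 2.86 to 14.1), a low-5.8S library too.

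The other 4 were in libraries with more 5.8S. Adk at 8961 (others 10765 to 11272) and Got1 at 18086 (others 25479 to 28430) were lowest in vagotomised ozone replicate 5, which also held the lowest Mat1a, Gnmt, Bhmt, Ahcy and Cbs of its group. That library also had the highest summed markers of Kupffer cells and macrophages, 11163 (others 5284 to 7934), and of lymphocytes and neutrophils, 229.5 (others 89.6 to 136.2), and the part of these cells in its values was not tested. Mtr was lowest in sham air replicate 1, at 172.2 (others 269.5 to 306.9), and Gclc highest in sham air replicate 3, at 2852 (others 1855 to 2106).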

How the results depend on the processing

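For the 5 members that rose, direction and call held in both surgery groups in all 220 fits that left out 1 library and in all 110 other fits. Among member results that were not called, 24 of 268 other fits and 55 of 550 fits without 1 library changed sign, and none became called. With ozone in sham rats, the log2 change of Shmt1 was -0.077 under equal column totals, -0.042 under equal upper quartiles and -0.024 without the low-5.8S libraries (-0.049 to 0.091 with 1 library left out), and that of Pemt was -0.061 to 0.055 with 1 library left out. In vagotomised rats Shmt1 was -0.016 under equal upper quartiles (-0.017 to 0.071 with 1 library left out) and Pemt -0.012 to 0.14.

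For vagotomy against sham in air, leaving out the low-5.8S libraries gave -0.11 for Gnmt, -0.035 for Ahcy and -0.11 for Pemt, edgeR gave -0.016 for Bhmt, DESeq2 -0.026 for Bhmt and -0.0022 for Ahcy, and equal column totals 0.0075 for Shmt1. With 1 library left out the values ran from -0.029 to 0.11 for Mat1a, -0.10 to 0.37 for Bhmt, -0.089 to 0.087 for Ahcy, -0.086 to 0.054 for Shmt1 and -0.028 to 0.083 for Pemt. Under ozone, equal column totals gave 0.033 for Mat1a, 0.063 for Bhmt and 0.097 for Shmt1, equal upper quartiles 0.019 for Shmt1, and no low-5.8S libraries 0.071 for Shmt1. With 1 library left out Gnmt ran from -0.20 to 0.24, Bhmt from -0.17 to 0.091 and Shmt1 from -0.053 to 0.045. For the difference of the ozone changes, no low-5.8S libraries gave 0.13 for Gnmt and 0.025 for Cbs, edgeR 0.0048 and DESeq2 0.013 for Bhmt, and leaving out 1 library -0.41 to 0.063 for Bhmt, -0.059 to 0.081 for Shmt1 and -0.010 to 0.14 for Pemt. The cause of these sign changes was not tested.

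Over all genes, calls for vagotomy against sham under ozone numbered 166, but 14 with only the groups compared, 272 without the low-5.8S libraries, 366.0 by DESeq2 and 19 to 217 with 1 library left out. For the difference of the ozone changes they numbered 0, but 16 by DESeq2 and 0 to 1 with 1 library left out. Equal column totals moved the median log2 change of all genes with ozone in sham rats to -0.095, beside 0.0081, and for vagotomy against sham under ozone to 0.091, beside -0.010. Of the calls in that surgery comparison 85.4% were higher under equal column totals, 69.0% under equal upper quartiles and 60.2% as reported. Calls of named pathway genes were lost in 28 of 902 fits without 1 library and in 6 of 450 others. The replicate numbers do not pair the rats: of 31 same-numbered pairs of libraries 10 had deviations correlated above 0.1 (range -0.495 to 0.608). With the replicate number as a block 3306 and 2490 genes were called with ozone in sham and vagotomised rats, 5 members were called in each, and sign changes were seen for Pemt with ozone in sham rats (0.018), Shmt1 in air (0.0072), Gnmt under ozone (-0.026) and Shmt1 in the difference (-0.030). The lowest normalised count of any member in any library was 286, so depth limits the members little, whereas Chac1 rests on few reads.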
